A study of Caenorhabditis elegans with 6 samples.

Results

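The sphingolipid enzyme genes sptl-1, sptl-2, sptl-3, hyl-1, hyl-2, lagr-1, asah-1, asm-1, asm-2 and asm-3, were followed in whole Caenorhabditis elegans after silencing of vit-5, which encodes a yolk protein. They were chosen by gene name as the serine palmitoyltransferases, ceramide synthases, an acid ceramidase and the acid sphingomyelinases, and they are 10 of the 45132 genes listed in every library. RNA came from wild-type animals of strain N2, harvested at 5 days of age. The 3 control RNAi libraries came from worms fed bacteria with the empty L4440 vector as larvae, and the 3 vit-5 RNAi libraries, termed silenced, from worms fed vit-5 RNAi bacteria as larvae. Both groups were moved to Escherichia coli OP50 as young adults. The labels do not say whether replicates were separate cultures, so p-values cover the spread among these libraries alone, and that spread could be technical.

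Sphingolipids are membrane lipids built on a long-chain base. Serine palmitoyltransferase joins serine to a fatty acyl-CoA to start that base, which in C. elegans is a branched chain, and ceramide synthases attach a second fatty acid to give ceramide. Ceramide is then carried into sphingomyelin or into glucosylceramide, and it is released again by sphingomyelinases and glucocerebrosidases. Ceramidase splits it to a free base that sphingosine kinase can phosphorylate and a lyase can destroy. In worms, ceramide synthases differ in the length of the fatty acid they attach, and hyl-2 is known for survival of anoxia.

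Expression was given as FPKM (fragments counted per kilobase of a gene's transcript and scaled for depth). Levels of different genes can be set side by side as far as the lengths used match the transcripts present. Those lengths are not stated, and annotated transcripts of sptl-1, for one, run from 525 to 1529 bases. No source used here states the depth; steps between low FPKM values put it very roughly at 17200000 to 21000000 fragments per library. At those depths the 10 enzymes rested on roughly 47 (asm-3, control replicate 1) to 2846 fragments (asah-1, control replicate 3). The target vit-5 was at 1396 to 2335 FPKM in control libraries and at 22.8 to 116 FPKM in silenced ones. Libraries differed within groups in larval cuticle and molting genes, whose 7 markers summed to 186, 478 and 536 FPKM in control replicates 1 to 3 and to 234, 273 and 798 FPKM in silenced replicates 1 to 3. Of the 7, rol-6 (3.41, 107 and 117 FPKM in controls, 3.15, 27.8 and 202 FPKM in silenced worms) and sqt-1 differed most between libraries. The marker sqt-3 went the other way, highest in replicate 1 of each group (105 and 132 FPKM). In silenced worms mlt-8 and nas-37 were lowest in replicate 2. Libraries called lowest in larval cuticle markers below are so by the sum. Markers of intestine, muscle, neurons, germline and adult hypodermis were present in all libraries, the sperm markers msp-142 and spe-9 stayed below 1 FPKM, and the embryo markers pes-10 and end-3 summed to 1.49 to 4.08 FPKM. Most genes shared an upward shift: the median log2 fold change of the 12908 genes tested was 0.34, and 0.03 after median-of-ratios scaling, which brings libraries to a common median gene.

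All 10 enzymes passed the filter of at least 1 FPKM in at least 3 libraries. In control worms their levels spanned from asah-1 at 99.8 ± 11.97 FPKM to asm-3 at 2.35 ± 1.45 FPKM (SD, n = 3). The order was asah-1, hyl-1, hyl-2, sptl-1, sptl-3, sptl-2, asm-2, lagr-1, asm-1 and asm-3. Control ranges of neighbours did not overlap between asah-1 and hyl-1, between sptl-1 and sptl-3, between sptl-3 and sptl-2, or between sptl-2 and asm-2. The other 5 neighbouring pairs overlapped in range, among hyl-1, hyl-2 and sptl-1 and, at lower levels, among asm-2, lagr-1, asm-1 and asm-3. Within libraries hyl-1 exceeded hyl-2, and asm-2 exceeded lagr-1, in all 3 controls. The remaining overlapping pairs held their order in 2 controls each. In silenced worms sptl-1 stood second, with a range that overlapped that of hyl-1, and asm-1 stood above lagr-1, with ranges that also overlapped.

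**Figure D1:**
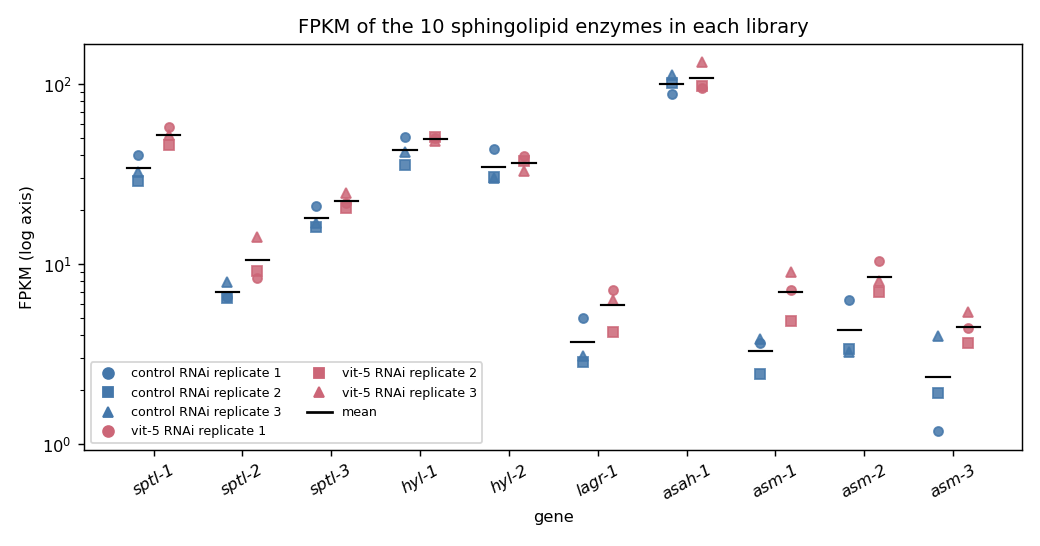
FPKM on a log axis for each of the 10 enzymes, with 3 control RNAi libraries (blue) and 3 vit-5 RNAi libraries (red); the symbol gives the replicate number and the bar the group mean. The 4 genes whose red symbols all lie above the blue ones are sptl-1, sptl-2, asm-1 and asm-2.

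The serine palmitoyltransferase genes were all higher in mean FPKM in silenced worms, most clearly sptl-1, while none passed the threshold over all genes. The gene sptl-1 (gene ID 173389; WBcel235, chromosome II, 51652 to 57570, plus strand) encodes the counterpart of the mammalian SPTLC1 subunit. Control libraries held 40.4, 28.9 and 32.4 FPKM and silenced libraries 57.6, 45.9 and 52.2 FPKM. Every silenced library lay above every control library. The log2 fold change of log2(FPKM + 1) was 0.61 (SE 0.19, 95% interval 0.17 to 1.04), with a limma p of 0.0121 and an adjusted p of 0.127.

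The other subunits, sptl-2 and sptl-3, are related to the mammalian SPTLC2 family, which carries the catalytic site. For sptl-2 (gene ID 266646; V, 8017941 to 8021715, plus strand) control libraries held 6.57, 6.43 and 7.97 FPKM and silenced libraries 8.36, 9.16 and 14.1 FPKM. The groups did not overlap, but silenced replicate 3 stood well above the other silenced libraries, and the log2 fold change was 0.50 (SE 0.25, limma adjusted p 0.235). For sptl-3 (gene ID 179884; V, 13893325 to 13896415, plus strand) the values were 21.1, 16.1 and 16.8 FPKM in controls and 21.8, 20.4 and 24.6 FPKM in silenced worms. Here control replicate 1 lay inside the silenced range, and the log2 fold change was near the shared shift, at 0.30 (SE 0.20, limma adjusted p 0.342). In every library sptl-3 exceeded sptl-2, by 2.11-fold to 3.21-fold in controls and by 1.75-fold to 2.60-fold in silenced worms.

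The ratio of sptl-1 to the sum of sptl-2 and sptl-3, which does not depend on how libraries are scaled, was 1.46, 1.29 and 1.31 in controls and 1.91, 1.55 and 1.35 in silenced worms. Its ranges overlapped, since silenced replicate 3 lay among the controls. The difference in log2 ratio was 0.23 (exact 2-sided permutation p 0.2, 0.3 adjusted over the 3 ratios tested; 3 against 3 libraries cannot give a p under 0.1).

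The ceramide synthases hyl-1 and hyl-2 differed little between groups. The gene hyl-1 (gene ID 177660; IV, 8539123 to 8544412, plus strand) held 50.4, 35.6 and 41.9 FPKM in controls and 50.2, 50.5 and 48.2 FPKM in silenced worms. All 3 silenced values fell inside the control range or within 1 FPKM of its upper end, with a log2 fold change of 0.23 (SE 0.18, 95% interval -0.18 to 0.64, limma adjusted p 0.416). For hyl-2 (gene ID 180743; X, 4696758 to 4699461, minus strand) the values were 43.5, 30.2 and 29.8 FPKM in controls and 39.7, 37.3 and 32.6 FPKM in silenced worms. Every silenced library lay inside the control range, and the log2 fold change was 0.10 (SE 0.20, 95% interval -0.37 to 0.56, limma adjusted p 0.775). Both fold changes were below the shared shift and turned negative after median-of-ratios scaling, at -0.13 for hyl-1 and -0.26 for hyl-2.

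Transcripts of hyl-1 exceeded those of hyl-2 in all 6 libraries. The ratio was 1.158, 1.177 and 1.405 in controls and 1.265, 1.354 and 1.478 in silenced worms, which overlapped. The difference in log2 ratio was 0.13 (exact 2-sided permutation p 0.3, 0.3 adjusted over the 3 ratios).

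The gene lagr-1 (gene ID 189370; I, 13724577 to 13732047, minus strand), which encodes a probable ceramide synthase, was far lower than hyl-1 or hyl-2. Control libraries held 5.03, 2.85 and 3.09 FPKM and silenced libraries 7.19, 4.18 and 6.31 FPKM. Control replicate 1 lay above silenced replicate 2, and the log2 fold change was 0.57 (SE 0.28, limma adjusted p 0.228). It supplied 4.13% to 5.09% of the summed FPKM of the 3 ceramide synthases in controls and 4.55% to 7.41% in silenced worms.

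The acid ceramidase gene asah-1 (gene ID 173120; I, 12505114 to 12507569, plus strand) was the most abundant transcript of the 10 in every library. Ceramidase releases the long-chain base and the fatty acid from ceramide. Control libraries held 87.6, 100.4 and 112 FPKM and silenced libraries 95.1, 97.01 and 131 FPKM. Both silenced replicates 1 and 2 lay inside the control range. The log2 fold change was 0.10 (SE 0.18, 95% interval -0.32 to 0.52, limma adjusted p 0.737), and it was -0.26 after median-of-ratios scaling and -0.05 without silenced replicate 3.

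The acid sphingomyelinases, which cut sphingomyelin to ceramide and phosphocholine, had the highest fold changes of the 10 enzymes, with means 1.90-fold to 2.13-fold as high as in controls, though none passed the adjusted threshold. The gene asm-1 (gene ID 174131; II, 6910072 to 6912659, plus strand) held 3.64, 2.43 and 3.80 FPKM in controls and 7.15, 4.84 and 9.03 FPKM in silenced worms. The groups did not overlap, on the deposited values and after median-of-ratios scaling. Its mean was 2.13-fold higher, and its log2 fold change was 0.88 (SE 0.28, 95% interval 0.24 to 1.52) with a limma p of 0.0128 and an adjusted p of 0.128. Exons of asm-1 share 120 bases with exons of cyn-10 on the other strand, and no source used here says whether counting used strand, so reads of the 2 genes cannot be told apart there. The means of cyn-10 were 48.2 ± 7.60 and 75.4 ± 17.7 FPKM (SD, n = 3), and its part in the asm-1 values was not tested.

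The gene asm-2 (gene ID 181323; X, 11321079 to 11324251, minus strand) held 6.32, 3.35 and 3.24 FPKM in controls and 10.4, 6.93 and 8.03 FPKM in silenced worms. The groups were separated on the deposited values, with control replicate 1 close below silenced replicate 2, and overlapped after median-of-ratios scaling. The mean was 1.96-fold higher and the log2 fold change was 0.86 (SE 0.29, limma p 0.0170, adjusted p 0.134). For asm-3 (gene ID 176879; IV, 520214 to 523809, minus strand) the values were 1.17, 1.91 and 3.97 FPKM in controls and 4.404, 3.634 and 5.372 FPKM in silenced worms. Controls spread widely, and control replicate 3 lay above silenced replicate 2. The log2 fold change was 0.78 (SE 0.33, limma p 0.0432, adjusted p 0.173), and exons of asm-3 share 9 bases with the non-coding gene W03G1.10 on the other strand.

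The 3 genes did not follow one another within the control group. The share of acid sphingomyelinase FPKM from asm-3 was 10.5%, 24.8% and 36.1% in control replicates 1 to 3, and that from asm-2 was 56.8%, 43.6% and 29.4%. In silenced worms the shares of asm-3 lay between 20.1% and 23.95%. The share from asm-1 was the steadiest in controls, from 31.6% to 34.5%, and reached 40.3% in silenced replicate 3. Control replicate 1, lowest in asm-3 and highest in asm-2, was also the control library lowest in larval cuticle markers. Silenced replicate 1, lowest in those markers in its group, was highest in asm-2 but not lowest in asm-3 (4.404 FPKM, against 3.634 FPKM in silenced replicate 2). The part of the marker difference in these levels was not tested.

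The summed FPKM of the acid sphingomyelinases was 11.1, 7.69 and 11.0 in controls and 21.9, 15.4 and 22.4 in silenced worms, against 98.9, 68.7 and 74.7 and 97.0, 92.03 and 87.2 for the ceramide synthases. The ratio of ceramide synthases to acid sphingomyelinases within a library was therefore 8.88, 8.92 and 6.79 in controls and 4.42, 5.97 and 3.88 in silenced worms. Every silenced library lay below every control library. The mean ratio was 8.20 ± 1.22 in controls and 4.76 ± 1.08 in silenced worms (SD, n = 3), and the log2 ratio fell by 0.80 (exact 2-sided permutation p 0.1, which 3 against 3 cannot go below, and 0.3 adjusted over the 3 ratios). With asm-1 left out of the sum, the ratio was 12.2 ± 1.59 in controls and 7.26 ± 1.26 in silenced worms (SD, n = 3), again with no overlap. The difference in log2 ratio was -0.69 without control replicate 1 and silenced replicate 1, which held the lowest sums of larval cuticle markers in their groups.

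**Figure D2:**
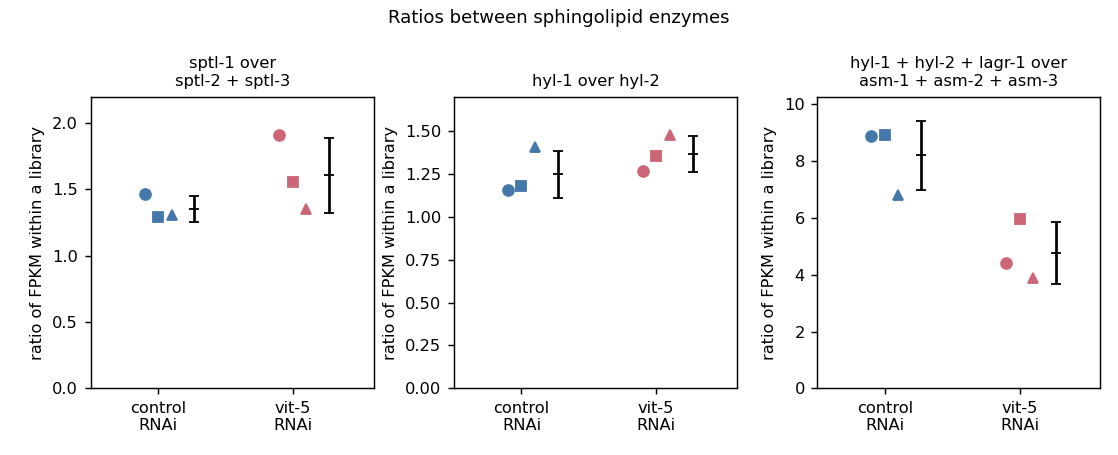
Ratios of FPKM within each library for sptl-1 over sptl-2 plus sptl-3 (left), hyl-1 over hyl-2 (middle) and the 3 ceramide synthases over the 3 acid sphingomyelinases (right), with circles, squares and triangles for replicates 1, 2 and 3 and black marks for the mean ± SD (n = 3). In the right panel the vit-5 RNAi libraries lie between 3.88 and 5.97 and the controls between 6.79 and 8.92, while the groups overlap in the other panels.

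Of the 10 enzymes, 0 passed the threshold of 0.05 on the limma adjusted p, as did 0% of all 12908 genes tested. The silenced target vit-5 missed it too, at a log2 fold change of -5.03 (limma adjusted p 0.0552, and 0.164 after median-of-ratios scaling). Missing this threshold with 3 libraries per group is therefore not evidence of no change. With an unadjusted limma p under 0.05, 4 of the 10 were higher (sptl-1, asm-1, asm-2 and asm-3), beside 26.2% of all genes, and 0 were lower, beside 0.906%. Leaving out control replicate 2 gave a count of 1, beside 11.2% of all genes, and leaving out silenced replicate 1 a count of 2, beside 17.5%. Groups did not overlap for 4 of the 10 (sptl-1, sptl-2, asm-1 and asm-2, all higher), beside 30.8% of all genes higher and 3.15% lower. The count of enzymes wholly above controls was 8 without control replicate 1, beside 47.6% of all genes. It was also 8 without both libraries lowest in larval cuticle markers, beside 52.9%, and 7 without silenced replicate 2, beside 36.7%. All 10 log2 fold changes were above 0, beside 79.5% of all genes, with a median of 0.54 against 0.34 for all genes.

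After median-of-ratios scaling the 10 enzymes divided. Fold changes of 6 were above 0 and of 4 below (sptl-3, hyl-1, hyl-2 and asah-1), beside 52.6% of all genes above 0, and the median was 0.21 against 0.03. Then asm-1 alone had an unadjusted limma p under 0.05 (0.0399; log2 fold change 0.59, SE 0.23), beside 9.23% of all genes higher and 12.1% lower. The values of asm-2 (0.56, SE 0.24) and asm-3 (0.51, SE 0.33) were of like size, and sptl-1 fell back to 0.25 (SE 0.14). Groups did not overlap for 2 of the 10, sptl-1 and asm-1, both higher, beside 14.4% of all genes higher and 16.3% lower. The limma adjusted p of the 10 enzymes was then at least 0.215.

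**Figure D3:**
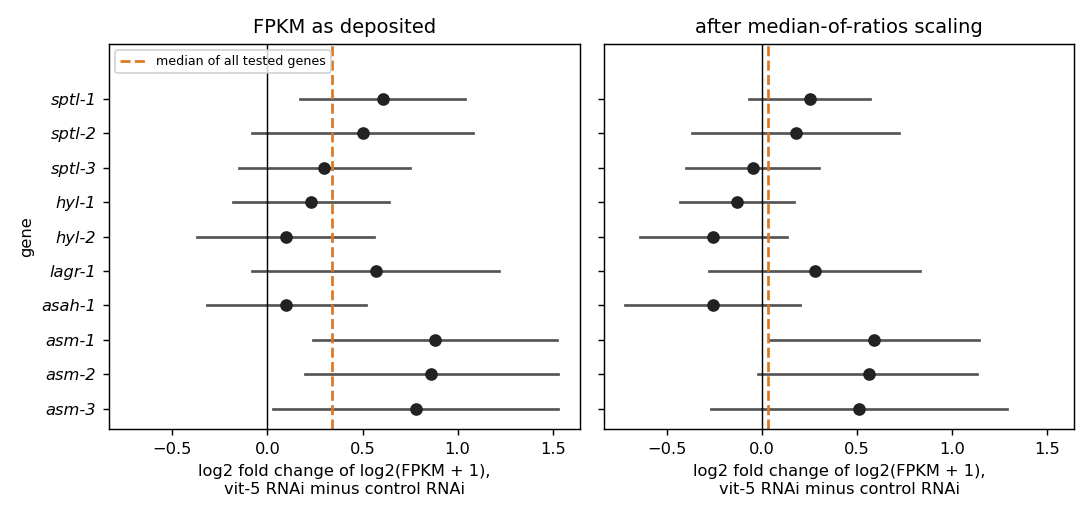
Log2 fold change of log2(FPKM + 1), vit-5 RNAi minus control RNAi, for the 10 enzymes on the deposited FPKM (left) and after median-of-ratios scaling (right); points are limma estimates, bars 95% intervals and the dashed line the median of all genes tested (0.34 left, 0.03 right). The acid sphingomyelinases lie farthest to the right in both panels, and hyl-2 and asah-1 farthest to the left.

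Some tissue markers were higher in silenced worms, and others of the same lists overlapped between groups. The 3 intestine markers (ges-1, elt-2 and ifb-2) summed to 87.6 to 113 FPKM in controls and 120 to 211 FPKM in silenced worms, with ges-1, an intestinal esterase, at 12.5 ± 3.18 and 26.2 ± 5.67 FPKM (SD, n = 3) and ifb-2, an intestinal filament protein, overlapping at 74.7 ± 17.7 and 113 ± 55.7 FPKM. The 3 neuronal markers summed to 29.5 to 39.8 and 47.2 to 54.6 FPKM, with rab-3, a synaptic vesicle GTPase, at 7.69 ± 1.46 and 17.95 ± 4.38 FPKM (SD, n = 3). The other neuronal markers overlapped between groups, with log2 fold changes of 0.34 for unc-119 and 0.17 for unc-17 that became -0.01 and -0.11 after median-of-ratios scaling. An unadjusted limma p under 0.05 was reached by 2 of the 3 intestine markers and 1 of the 3 neuronal ones, all higher, beside 26.2% of all genes. After median-of-ratios scaling ges-1 (log2 fold change 0.67, unadjusted limma p 0.0116) and rab-3 (0.78, 0.00724) kept such a p, beside 9.23% of all genes. The intestine marker elt-2 did not (0.19, unadjusted limma p 0.351), and its groups then overlapped. Germline (152 to 258 FPKM) and body wall muscle sums (102 to 227 FPKM) overlapped between groups, as did the adult collagen col-19 (30.1 to 171 FPKM). In whole worms more cells of a type and more RNA per cell cannot be told apart, and the part of tissue makeup in the enzyme values was not tested.

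The surrounding pathway was described with 30 further genes, of which 29 were found and 28 passed the filter (gba-2, below 1 FPKM in every library, did not). None passed the adjusted limma threshold. With an unadjusted p under 0.05, 9 of the 28 were higher on the deposited FPKM, beside 26.2% of all genes, and 0 lower, beside 0.906%. After median-of-ratios scaling 3 were higher, beside 9.23% of all genes, and 3 lower, beside 12.1%. These counts include sms-5, which was under 1 FPKM in every control and entered through its silenced libraries; without it 8 of 27 (29.6%) were higher as deposited, and 2 higher and 3 lower after scaling. The 9 became 4 when control replicate 2 was left out (11.2% of all genes), and 5 when control replicate 3, silenced replicate 1 or silenced replicate 2 was (15%, 17.5% and 19.9% of all genes). The median log2 fold change without sms-5 was 0.38, and 0.08 after scaling, close to the medians of all genes.

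Among genes that release ceramide from glycolipid, all 4 tested had an unadjusted limma p under 0.05 and values that lay wholly above controls, beside 26.2% and 30.8% of all genes. The glucocerebrosidase gene gba-4 held 31.2, 13.9 and 12.1 FPKM in controls and 59.02, 34.3 and 33.2 FPKM in silenced worms, with control replicate 1 close below the lower silenced libraries. Its log2 fold change was 1.17 (SE 0.37, limma adjusted p 0.128). The means were 2.82 ± 0.37 and 5.31 ± 0.59 FPKM for gba-3, 29.1 ± 6.04 and 43.9 ± 8.23 FPKM for gba-1, and 232 ± 48.1 and 311 ± 34.9 FPKM for spp-10, which encodes a saposin-like protein (SD, n = 3 each). After median-of-ratios scaling gba-4 was at 0.83, gba-3 at 0.43, gba-1 at 0.23 and spp-10 at 0.08, and gba-4 alone of these kept an unadjusted limma p under 0.05 (0.0472). On that scale gba-3 alone lay wholly above controls, beside 14.4% of all genes, and the groups overlapped for gba-4, gba-1 and spp-10.

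Sphingosine kinase, which phosphorylates the free base, and the lyases that destroy its product gave different values. The gene sphk-1 held 6.78, 3.67 and 4.01 FPKM in controls and 11.1, 7.95 and 10.02 FPKM in silenced worms, with no overlap and a log2 fold change of 0.90 (SE 0.27, limma p 0.0101, adjusted p 0.123). The lyase gene spl-1 stood at 37.2 ± 3.35 and 39.2 ± 1.88 FPKM and spl-3 at 44.7 ± 3.41 and 44.4 ± 1.21 FPKM (SD, n = 3 each). The lyase gene spl-2 ranged from 0.49 to 28.96 FPKM within the control group alone. After median-of-ratios scaling the log2 fold change was 0.59 for sphk-1 (unadjusted limma p 0.0292) and -0.36 for spl-3 (unadjusted limma p 0.0191).

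Enzymes that use ceramide were represented by synthases of sphingomyelin and of glucosylceramide. The sphingomyelin synthase genes sms-1, sms-2 and sms-3 had log2 fold changes from -0.05 to 0.12, and the ceramide glucosyltransferase genes cgt-1, cgt-2 and cgt-3 from 0.22 to 0.38, none with an unadjusted limma p under 0.05. The sphingomyelin synthase-related gene sms-5 was barely detected, with 0.89, 0.65 and 0.45 FPKM listed for controls and 1.69, 1.68 and 1.84 FPKM for silenced worms. Since it passed the filter on low values only through its silenced libraries, no test of it is given. In the glycosylation of glycosphingolipids, bre-2 was at 1.38 ± 0.20 and 2.61 ± 0.40 FPKM, with a log2 fold change of 0.60, while bre-4 was at 27.8 ± 2.04 and 23.2 ± 1.10 FPKM (SD, n = 3 each) with every silenced library below every control library. The log2 fold change of bre-4 was -0.24 (SE 0.17, limma adjusted p 0.367), and -0.59 after median-of-ratios scaling (SE 0.16, limma adjusted p 0.186).

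Upstream of ceramide, elo-5, an elongase that makes branched-chain fatty acids, held 60.7, 56.5 and 44.7 FPKM in controls and 67.7, 92.3 and 72.7 FPKM in silenced worms. Its log2 fold change was 0.51 (SE 0.19, limma adjusted p 0.149), and 0.16 after median-of-ratios scaling, when the groups overlapped. The putative sphingolipid desaturase gene F33D4.4 was at 30.9 ± 8.62 and 44.6 ± 5.49 FPKM (SD, n = 3), and its log2 fold change was 0.54 (SE 0.23, limma adjusted p 0.173). After median-of-ratios scaling F33D4.4 was at 0.19, with groups that overlapped. For let-767, a reductase of fatty acid elongation, the means were 160 ± 12.5 and 152 ± 4.32 FPKM (SD, n = 3), and its log2 fold change of -0.07 became -0.43 after median-of-ratios scaling (unadjusted limma p 0.0322).

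**Figure D4:**
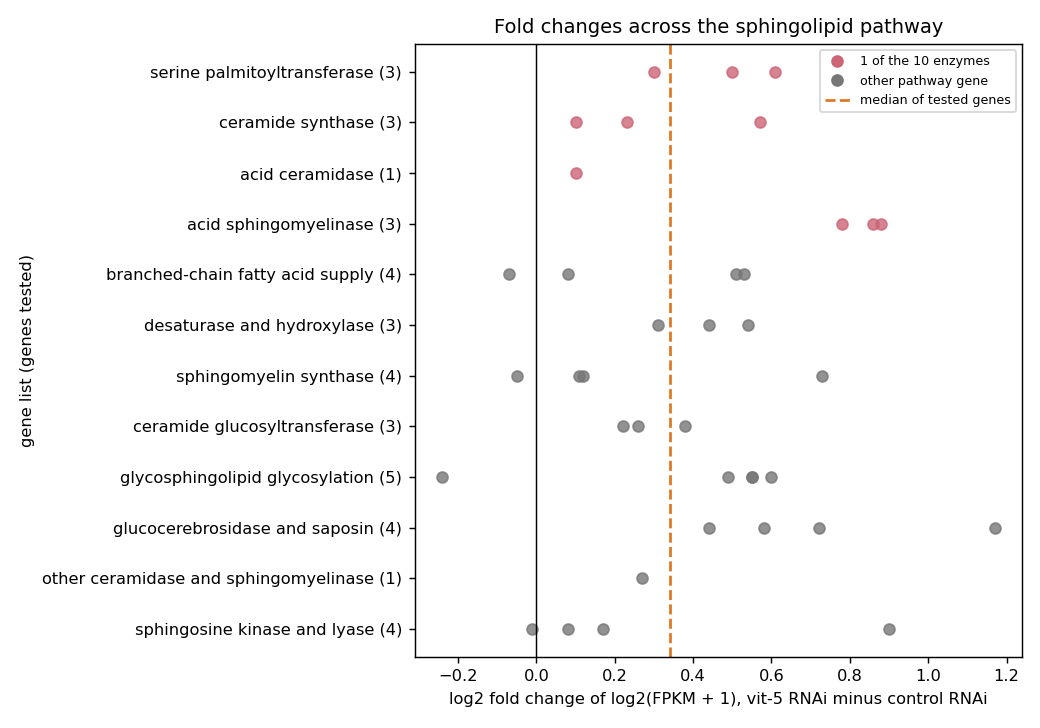
Log2 fold change of log2(FPKM + 1), vit-5 RNAi minus control RNAi, for the 10 enzymes (red) and the other pathway genes tested (grey), 1 row per gene list with the number tested in brackets; the dashed line is the median of all genes tested, 0.34. The acid sphingomyelinase, glucocerebrosidase and saposin rows lie wholly to the right of that line, and the ceramide synthase row spans it. The sphingomyelin synthase point at 0.73 is sms-5, which passed the filter on low values only through its silenced libraries.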

How the data were processed

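RNA-seq of 6 libraries of whole N2 worms, 3 per group by title, was analysed. Trizol was used for extraction and a NEBNext Ultra RNA kit for the libraries, per the labels' protocols. Each deposited file holds the authors' FPKM for every gene in 1 library, per the file headers. Per the submitters' processing notes, Bowtie2 2.2.3, TopHat2 2.0.12, HTSeq 0.6.1, DESeq 1.18.0 and the build WBcel235 were used, without their roles; no source used here names the program behind the FPKM. Read counts were not used here. The depths are rough, from the value spacing of low single-transcript genes times transcript length, so no counting interval is given.

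Values were transformed as log2(FPKM + 1), which understates fold changes of low genes, for the 12908 genes that reached 1 FPKM in 3 or more libraries. The fit in limma 3.58.1 (R 4.3.3) had group as its only term and a mean-variance trend, with Benjamini-Hochberg adjustment over all genes and a threshold of 0.05; it was tested on simulated data. Ratios were compared by exact permutation. Coordinates came from RefSeq by gene ID, and exon overlaps from Ensembl, both on WBcel235. Members and lists were chosen with earlier results of these data known. Named genes were the 10 enzymes, vit-5, pathway genes with an unadjusted p under 0.05 on the deposited or the median-of-ratios scale, and the 3 genes most like the most abundant enzyme. Those named after their values were seen were cyn-10, W03G1.10, gba-2, ges-1, elt-2, ifb-2, rab-3, unc-119, unc-17, rol-6, sqt-1, sqt-3, mlt-8, nas-37 and the remaining pathway genes. The pathway gene nsm-1 had no match. Libraries of one group correlated at 0.927 to 0.989 and libraries of different groups at 0.928 to 0.984 (Pearson's r on the log2 scale). At most 0.0697% of tested genes had equal values in any pair of libraries. Alternatives were a pseudocount of 0.1, no filter, 3 scalings, the replicate number as a block and leaving out each library. Added after the data were seen were leaving out both libraries lowest in larval cuticle markers and asm-1 out of its sum.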

Additional observations from a re-analysis of the deposited data

How the results depend on the processing

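The lower ratio of ceramide synthases to acid sphingomyelinases kept its direction in every alternative run for it. It went from -0.66 to -0.97 (log2) with each library left out and was -0.62 with 1 FPKM added to each value. The replicate block and scaling by 1 factor per library cannot change this difference, and quantile scaling was not run for it. Positive fold changes of sptl-1, sptl-2, lagr-1, asm-1, asm-2 and asm-3 also kept their sign in every alternative, while those of the other enzymes did not.

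Scaling by median of ratios, by upper quartile and by quantiles gave medians of 0.21, 0.29 and 0.09 for the 10 enzymes and 0.09, 0.16 and 0.09 for the other pathway genes. Enzymes higher at an unadjusted limma p under 0.05 numbered 1, 3 and 1 under these scalings, in that order, and other pathway genes 3, 4 and 2, beside 9.23%, 12.7% and 5.77% of all genes. Other pathway genes lower numbered 3, 2 and 1, beside 12.1%, 8.67% and 5.77%. The counts and medians of other pathway genes here and below include sms-5, which passed the filter on low values only through its silenced libraries. Without sms-5, 2 were higher and 3 lower after median-of-ratios scaling, with a median of 0.08. Enzymes wholly above controls numbered 2, 3 and 1, beside 14.4%, 17.8% and 9.78%. Reversed fold changes under those scalings were -0.05 and -0.09 for sptl-3 (median-of-ratios and quantile), -0.13, -0.05 and -0.02 for hyl-1, -0.26, -0.18 and -0.20 for hyl-2, and -0.26 and -0.18 for asah-1 (median-of-ratios and upper-quartile). The log2 ratio of mean summed FPKM of the 10 enzymes, 0.29 as deposited, was -0.08 after median-of-ratios scaling. The scalings remove the shared shift by construction. With each library left out asah-1 ranged from -0.05, without silenced replicate 3, to 0.18.

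With each library left out, 0 to 5 of all genes passed the adjusted threshold and 0 enzymes did; without both libraries lowest in larval cuticle markers 2 genes passed and groups did not overlap for 8 enzymes. Enzymes higher at an unadjusted p under 0.05 ranged from 1 to 4 and other pathway genes from 4 to 13, beside 11.2% to 29.9% of all genes, and enzymes wholly above controls from 4 to 8, beside 31.7% to 47.6% (52.9% without both libraries). The cause of these changes was not tested.

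Deviations from the group mean correlated between same-numbered libraries at 0.753, 0.034 and 0.681, and replicate 2 of each group correlated best with another number, so the numbers were not taken to pair the libraries. With the replicate number as a block, 3806 of all genes (29.5%) passed the adjusted limma threshold, among them 4 enzymes, sptl-1 (0.0160), asm-1 (0.0151), asm-2 (0.0158) and asm-3 (0.0358), and 6 enzymes and 14 other pathway genes were higher at an unadjusted p under 0.05, beside 41.9% of all genes.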

Other observations

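The genes whose log2(FPKM + 1) followed asah-1 most closely over the 6 libraries were E04D5.5 (Pearson's r 0.999), ZK470.6 (0.996) and R11F4.1, annotated as a probable glycerol kinase (0.996). Of all other tested genes, 1034 (8.01%) had an r above 0.9 with asah-1, so a close match over 6 libraries was common. R11F4.1 stood at 27.3, 45.4 and 60.5 FPKM in controls and at 35.3, 37.8 and 127 FPKM in silenced worms, with silenced replicate 3 the highest, as for asah-1. Within groups hyl-1 varied least in silenced worms, with a coefficient of variation of 2.51%, and asm-3 most in controls, with 61.6%, beside medians over all tested genes of 22.6% and 20.5%.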
